A study of Arabidopsis thaliana with 18 samples.

Results

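The late genes are the 100 genes whose transcript level after 4 h of abscisic acid (ABA) stood highest above their levels at mock and at 2 h. They were taken from the 32833 genes listed in every library. For each gene, the level in TPM (a read share corrected for gene length) was averaged over the 6 libraries of both genotypes at mock, at 2 h and at 4 h. Genes with a mean of at least 5 TPM at 4 h, 14906 in all, were ranked by the log2 ratio of the 4 h mean to the higher of the other means, with 1 TPM added to each, and the first 100 were kept. These levels chose the members, so the differences between the time points are given for the members as descriptions without a test. The score ran from 4.65 to 1.49, with a median of 1.80. The last members taken were AT1G11170 (1.51), AtCDC48B and AT1G63420 (1.49), and the next genes were BFT (1.48), AtS40-3 (1.48) and AT5G38910 (1.46), so the list has no natural edge.

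The libraries came from whole Arabidopsis thaliana seedlings of ecotype Columbia, 2 weeks old and grown on medium with sucrose. WT and bro1-1, a single T-DNA insertion line in AtBro1, were each mock-treated or exposed to 100 µM ABA and harvested 2 h or 4 h later, and each of the 6 groups holds 3 independent biological replicates. AtBro1 (AT1G73390) encodes a protein with a Bro1-like domain, and the study asked how its loss alters the early transcriptional response to ABA. The labels give a single mock group for each genotype and no clock time, so longer ABA exposure and a later time of day cannot be told apart.

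ABA is the hormone that plants make when they lose water, and seeds use it to prepare for drying. It is bound by PYR/PYL receptors, which then block clade A protein phosphatases and free SnRK2 kinases to phosphorylate bZIP factors of the ABF and ABI5 type. Those factors bind ABA-responsive elements (ABREs), short promoter sequences with the core ACGTG, and switch on genes for protective proteins such as late embryogenesis abundant (LEA) proteins. Some targets respond at once, whereas others need regulators that must first be made, and anthocyanin synthesis and leaf senescence are known later outputs.

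Total expected counts ran from 15568034 to 17853178 per library. AtBro1 stood at 8.02 to 18.5 TPM in the 6 mock libraries, at 279 to 386 TPM in WT and 119 to 143 TPM in bro1-1 at 2 h, and at 243 to 391 TPM in WT and 104 to 125 TPM in bro1-1 at 4 h, so the genotypes did not overlap under ABA. All leaf markers and all root markers but PLT1 were above 0 TPM in every library, and PLT1 was at 0 TPM in bro1-1 ABA 2 h replicates 2 and 3. Of 4 flower-identity genes, AG and AP3 lay under 1 TPM in every library, whereas PI ran from 0.42 to 8.47 TPM and SEP3 from 2.85 to 15 TPM. Several libraries stood apart from their groups. Summed over 8 root markers, leaving out the abundant PYK10, WT ABA 4 h replicate 2 had 56.0 TPM against 24.2 and 22.1 TPM in the other WT libraries at 4 h, and bro1-1 ABA 2 h replicate 1 had 80.8 TPM against 29.4 and 38.8 TPM. The light-harvesting gene LHCB1.1 was at 431 TPM in WT mock replicate 2 and 793 TPM in bro1-1 mock replicate 3, against 4292 to 5347 TPM in the other mock libraries. In the same order, the clock gene TOC1 was at 130 and 134 TPM against 41.0 to 82.0 TPM, and PRR9 at 1.18 and 0.480 TPM against 2.41 to 9.17 TPM. The clock gene PRR7 was not apart in WT mock replicate 2, at 114 TPM. A difference in time of harvest was not tested, as the labels give no clock time. The 14 genes of a seed storage and oil body list summed to 1244 TPM in bro1-1 mock replicate 3, against 1.75 to 3.71 TPM in the other mock libraries, and the LEA members were highest there too, with a median of 1.32 on the log2 scale above the mock mean and AT3G17520 at 11 TPM against at most 0.660 TPM in the other mock libraries. Without that library 99 of the 100 members were taken again, and edgeR called 0 members between the genotypes at mock, as with it. In whole seedlings, a larger share of cells of a type and more RNA per cell cannot be told apart.

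**Figure D1:**
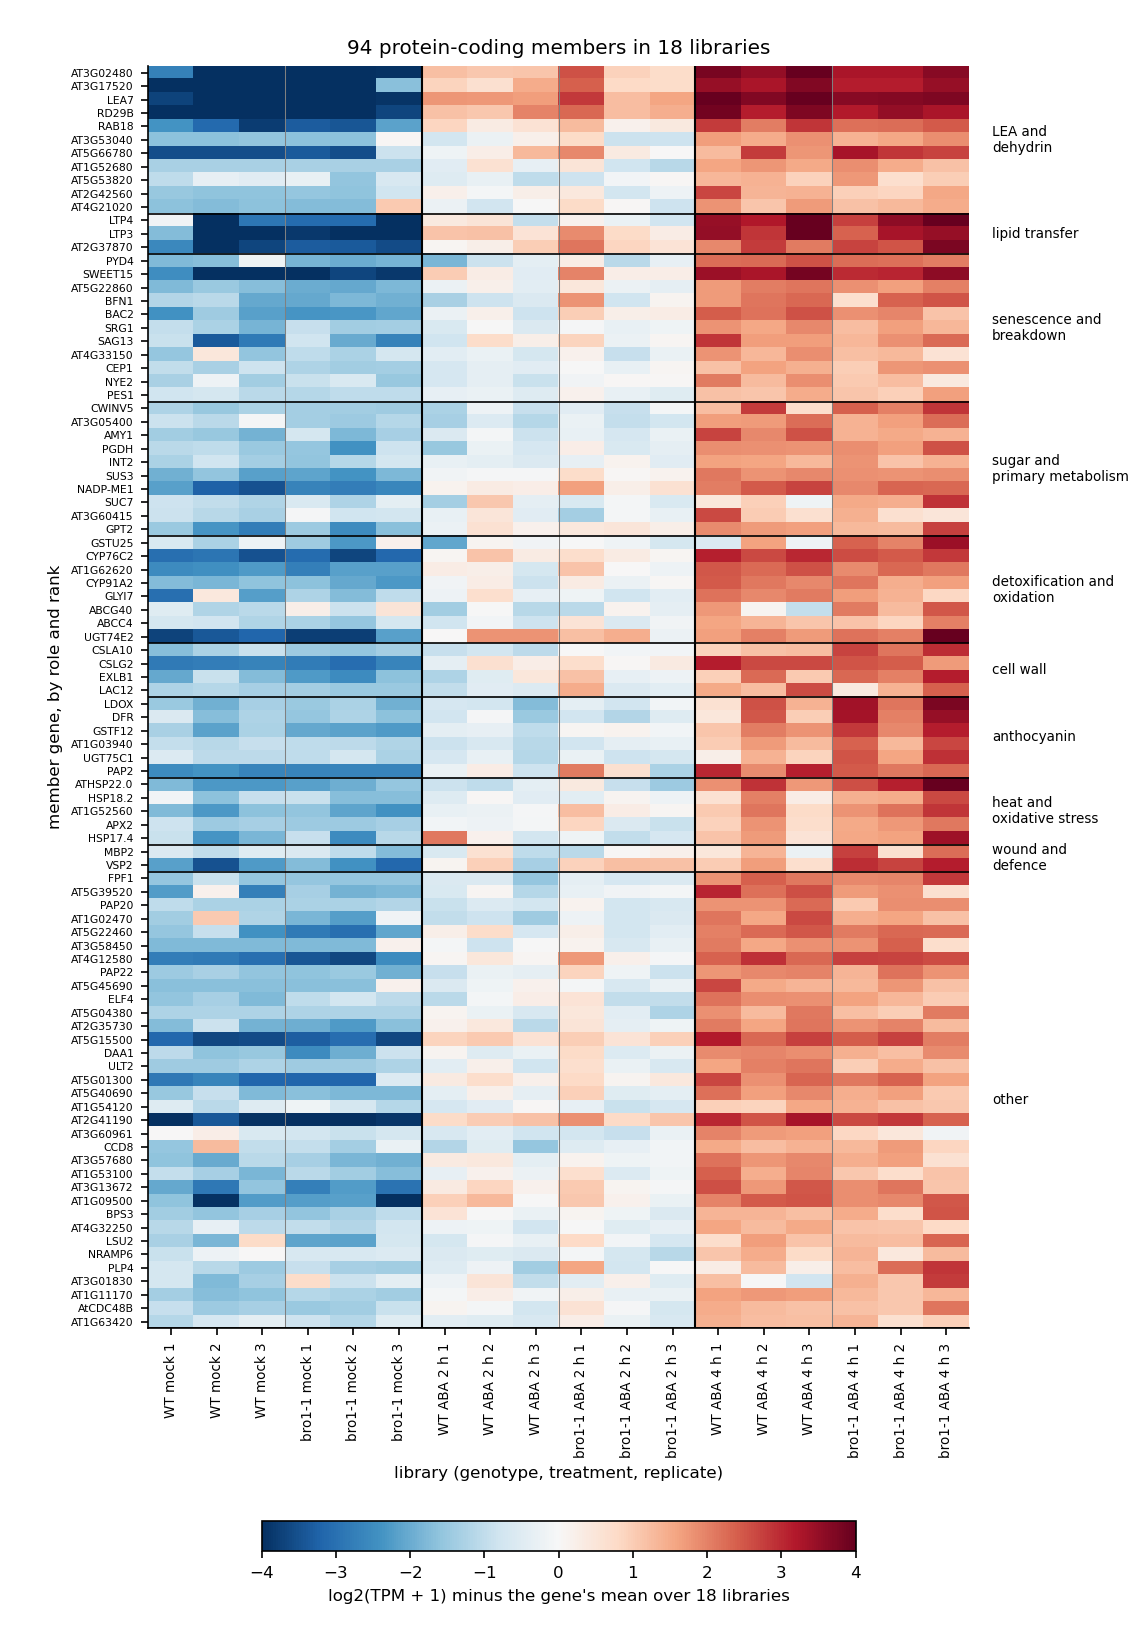
Levels of the 94 protein-coding members (lines, grouped by role and ordered by rank) in the 18 libraries (columns, by treatment, genotype and replicate), as log2(TPM + 1) minus each gene's own mean. The 4 h libraries are the reddest in every role group, bro1-1 ABA 2 h replicate 1 is redder than its replicates for LEA genes, and the anthocyanin, heat and wound groups are palest in WT ABA 4 h replicates 1 and 3.

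Of the 100 members, 94 are protein-coding and 6 are annotated short noncoding RNAs. The noncoding members include ranks 1, 2, 3 and 5, yet they rest on almost no reads. MIR168a (AT4G19395, precursor of a microRNA that targets ARGONAUTE1) was ranked first on 4.00 expected counts in WT ABA 4 h replicate 2 and 1.00 in bro1-1 ABA 4 h replicate 2, with 0 in the other 16 libraries. Its effective length, the number of positions from which a fragment could start, averaged 2.39 bases, so 4.00 counts became 112 TPM. AT4G03915, AT2G09700, AT1G04277, U1.9 (AT5G04315) and AT4G06705 had effective lengths of 2.91 to 9.19 bases and never over 3 counts in a library at 4 h. These 6 lie near the floor of 3 counts, failed the filter on low counts in every test, and are not described further.

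The 94 coding members shared a time course whose steepness varied. Their mean level at 4 h ran from 6.34 TPM (AT1G52680) to 5550 TPM (AT3G02480), with a median of 36.2 TPM, and 23 of them exceeded 100 TPM. At mock, 39 of the 94 lay under 1 TPM. The ratio of the 4 h mean to the 2 h mean ran from 2.88 (UGT74E2) to 18 (DFR), with a median of 4.15. At 2 h the members had made a median of 17.0% of their increase from mock to 4 h. That share was under 10% for 25 members and over 25% for 16 members, and 5 members (AT1G02470, ABCG40, AT3G60961, CCD8 and NRAMP6) were lower at 2 h than at mock. Together the coding members took 0.0608% of all TPM at mock, 0.476% at 2 h and 2.01% at 4 h. In 73 of the 94, all 6 libraries at 4 h lay above all other 12, which holds for 4.30% of the 14688 coding genes with at least 5 TPM at 4 h, and which the ranking itself selects for.

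The members lie on all 5 chromosomes, with 29 on chromosome 1, 11 on 2, 17 on 3, 19 on 4 and 24 on 5. In the TAIR10.1 annotation, only 2 pairs are direct neighbours. LTP4 (chr5:23924990-23925957, minus strand) and LTP3 (chr5:23928954-23929816, plus strand) are 2996 bases apart, and the LEA genes AT1G52680 (chr1:19618099-19619026, minus strand) and LEA7 (chr1:19619724-19621534, plus strand) are 697 bases apart and are read outwards from a shared stretch. Coding members had a median effective length of 1258 bases, against 1439 bases for coding genes of at least 5 TPM at 4 h, and 11.7% had a single exon against 10.7%.

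What the members share beyond the ranking was sought in the 300 bases before the annotated gene start, read on both strands. The ABRE core ACGTG stood in 50 of the 94 member promoters (53.2%), against 27.3% of the 14687 coding genes of at least 5 TPM at 4 h and 25.6% of all 27443 coding genes. At least 2 separate cores stood in 23.4% of member promoters and in 5.9% of all promoters. The G-box CACGTG, which contains the ABRE core, was in 23.4% against 7.1%, and the NAC core CATGTG, a core site of NAC factors that drive senescence, in 21.3% against 13.1%. The W-box core TTGAC was in 58.5% against 50.4%. The evening element AAATATCT, bound by clock factors, was in 10.6% against 5.6%. The other shares were closer: the DRE core CCGAC in 16.0% against 13.9%, the AC element ACCNACC in 9.6% against 7.1% and the GCC-box GCCGCC in 2.1% against 2.3%. These letter matches are descriptions and show no binding.

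**Figure D2:**
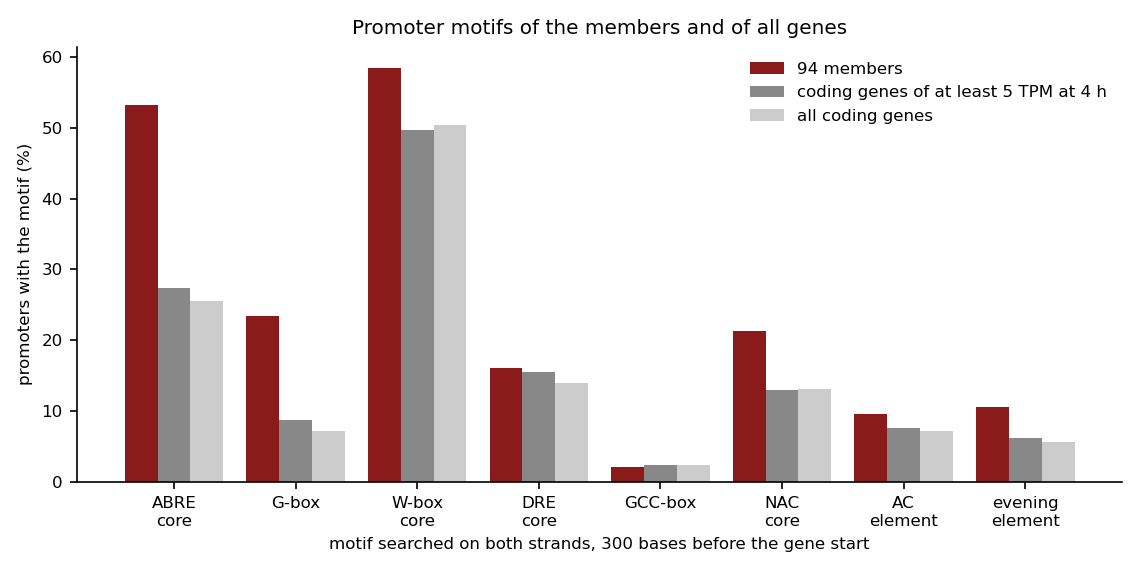
Share of promoters (300 bases before the gene start, in percent) that hold each of 8 motifs on either strand, for the 94 coding members, for coding genes of at least 5 TPM at 4 h and for all coding genes. The ABRE core is in 53.2% of member promoters against 25.6% of all, and the DRE core is in 16.0% against 13.9%.

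The role groups differed in these letters. All 11 LEA and dehydrin members held an ABRE core, 10 of them at least 2, and 8 of 11 held a DRE core. The core was in 3 of 6 anthocyanin promoters, 4 of 5 heat and oxidative stress promoters and 5 of 11 senescence and breakdown promoters, and the NAC core was in 5 of those 11. The promoters below show the members on which the results turn, as RefSeq gives them in TAIR10.1, 5′ to 3′ toward the gene, with each ABRE core on either strand in capitals. LTI65, LEA7 and AT3G02480 stand for the LEA group, DFR for anthocyanin synthesis, and CSLA10 and VSP2 for the members with the clearest difference between the genotypes.
LTI65: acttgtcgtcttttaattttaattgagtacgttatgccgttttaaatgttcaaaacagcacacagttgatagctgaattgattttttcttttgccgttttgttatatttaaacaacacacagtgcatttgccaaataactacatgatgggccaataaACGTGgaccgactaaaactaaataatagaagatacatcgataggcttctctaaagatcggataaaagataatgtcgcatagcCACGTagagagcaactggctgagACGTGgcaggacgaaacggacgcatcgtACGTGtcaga
LEA7: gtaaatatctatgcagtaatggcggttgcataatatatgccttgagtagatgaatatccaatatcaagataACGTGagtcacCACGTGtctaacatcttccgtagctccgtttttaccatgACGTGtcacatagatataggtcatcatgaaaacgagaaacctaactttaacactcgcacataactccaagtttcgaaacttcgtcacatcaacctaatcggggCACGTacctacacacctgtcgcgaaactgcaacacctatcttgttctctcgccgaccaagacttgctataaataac
AT3G02480: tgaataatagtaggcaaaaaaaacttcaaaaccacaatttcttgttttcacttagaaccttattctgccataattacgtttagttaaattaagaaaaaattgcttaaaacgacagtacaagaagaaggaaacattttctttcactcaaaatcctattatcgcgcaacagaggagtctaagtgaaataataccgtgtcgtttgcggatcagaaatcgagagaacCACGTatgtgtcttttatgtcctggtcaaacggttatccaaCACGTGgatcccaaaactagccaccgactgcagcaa
DFR: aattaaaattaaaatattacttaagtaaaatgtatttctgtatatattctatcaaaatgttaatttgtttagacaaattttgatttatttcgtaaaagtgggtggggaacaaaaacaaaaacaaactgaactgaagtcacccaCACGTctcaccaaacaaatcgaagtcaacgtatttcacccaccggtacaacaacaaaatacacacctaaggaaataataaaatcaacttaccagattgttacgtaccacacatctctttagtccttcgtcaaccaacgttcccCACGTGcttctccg
CSLA10: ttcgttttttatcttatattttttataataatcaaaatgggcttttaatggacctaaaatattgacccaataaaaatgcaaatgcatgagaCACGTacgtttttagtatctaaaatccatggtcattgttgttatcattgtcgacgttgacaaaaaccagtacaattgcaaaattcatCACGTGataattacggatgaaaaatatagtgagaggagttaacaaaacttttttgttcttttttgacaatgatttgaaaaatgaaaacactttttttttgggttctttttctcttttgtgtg
VSP2: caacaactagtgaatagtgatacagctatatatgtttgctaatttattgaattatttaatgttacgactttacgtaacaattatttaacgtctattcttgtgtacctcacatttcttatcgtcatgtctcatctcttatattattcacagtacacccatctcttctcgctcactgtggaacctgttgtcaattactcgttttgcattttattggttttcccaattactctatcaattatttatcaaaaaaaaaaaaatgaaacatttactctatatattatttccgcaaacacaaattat
LTI65 (chr5:21236721-21237020, plus strand) and LEA7 (chr1:19619424-19619723, plus strand) each hold 4 separate cores. AT3G02480 (chr3:511920-512219, plus strand), DFR (chr5:17166033-17166332, minus strand) and CSLA10 (chr1:8519985-8520284, minus strand) each hold 2, and VSP2 (chr5:8502225-8502524, minus strand) holds 0.

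LEA proteins and dehydrins protect membranes and enzymes in drying cells and included the highest member. The group ranged widely, with a median of 69.5 TPM at 4 h. AT3G02480, a LEA family gene and the highest member, stood at 6269, 5194 and 7535 TPM in the WT libraries and 4347, 4374 and 5578 TPM in the bro1-1 libraries at 4 h, after 946 to 1046 TPM in WT at 2 h. LEA7 reached 2948, 2029 and 3413 TPM in WT and 1981, 2019 and 2078 TPM in bro1-1. The dehydrin RAB18 reached 2346, 1369 and 2405 TPM in WT and 1530, 1584 and 1829 TPM in bro1-1. In each of these genes WT ABA 4 h replicate 2 was the lowest WT library, and the genotypes overlapped through it. LTI65, known as RD29B and a standard reporter of ABF activity, was at 467 to 763 TPM in WT and 479 to 599 TPM in bro1-1, from 0.87 TPM at mock. The group had made a median of 23.1% of its increase at 2 h. In bro1-1 ABA 2 h replicate 1, AT3G02480 was already at 2619 TPM and LEA7 at 1129 TPM, against 755 to 861 TPM and 369 to 471 TPM in the other bro1-1 libraries at 2 h.

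The other LEA members were lower. AT3G17520 averaged 403 TPM and AT5G66780 69.5 TPM at 4 h, and AT3G53040, AT1G52680, AT5G53820, AT2G42560 and AT4G21020 stayed between 6.34 and 8.76 TPM. A list of known stress and seed LEA and dehydrin genes puts the lateness in context. Of its 16 genes 3 are members (RAB18, LTI65 and LEA7), and all other 13 were called higher at 4 h than at mock, against 16.1% of all genes tested. From 2 h to 4 h only 3 of those 13 were called higher, against 2.60% of all genes. They were KIN1, which went from 1263 to 3221 TPM (log2 fold change 1.26, SE 0.169, adjusted p = 0.000449), and the seed genes EM1 (3.57 to 10.3 TPM) and EM6 (43.0 to 95.9 TPM). The cold- and drought-responsive RD29A went from 3257 to 1989 TPM (log2 fold change -0.80, adjusted p = 0.00598), short of the required fold change, and COR47, LTI30 and COR15B had log2 fold changes of -0.12, 0.13 and -0.11. RD29A, COR47 and COR15B thus had a mean at 2 h no lower than at 4 h, which the ranking bars for a member.

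Lipid transfer proteins carry lipids to the cuticle, and LTP3 and LTP4 were among the highest members. LTP4, the first coding member by rank, was at 678, 558 and 1150 TPM in WT and 397, 713 and 968 TPM in bro1-1 at 4 h, against 29.7 to 85.8 TPM in the 6 libraries at 2 h. LTP3 was at 1833, 1153 and 3225 TPM in WT and 810, 1575 and 1775 TPM in bro1-1. Both overlapped between the genotypes, and LTP3 had made 18.7% of its increase at 2 h, against 6.12% for LTP4. These neighbours are paralogs. Their expected counts were whole in all 18 libraries, and whether reads were shared out between them was not tested. AT2G37870, of the wider lipid-transfer and seed storage family, averaged 257 TPM. Apart from LTP3 and LTP4, of the cuticular wax and lipid transfer list 6 of 7 genes tested were called higher than at mock (16.1% of all genes) and 0 of 7 between 2 h and 4 h.

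Anthocyanins are red flavonoid pigments, and the last steps of their synthesis were among the latest genes of the whole series. LDOX, which makes the coloured anthocyanidin, was at 4.72, 20.8 and 8.82 TPM in WT and 37.9, 15.6 and 49.9 TPM in bro1-1 at 4 h, and at 0.14 to 2.50 TPM in every library at 2 h. DFR, the step before it, was at 3.46, 17.4 and 5.54 TPM in WT and 31.6, 12.3 and 35.4 TPM in bro1-1. For both genes, WT ABA 4 h replicate 2 lay above bro1-1 ABA 4 h replicate 2, so the genotypes overlapped by that pair alone. GSTF12 (TT19, which helps carry anthocyanins to the vacuole), AT1G03940 (an acyltransferase) and AT4G14090 (UGT75C1, an anthocyanin glucosyltransferase) averaged 22.6, 7.89 and 9.40 TPM at 4 h. MYB90 (PAP2), a MYB activator of the pathway, averaged 8.22 TPM at 2 h and 35.7 TPM at 4 h. Its mean at 2 h leaned on bro1-1 ABA 2 h replicate 1 at 25.6 TPM. The other libraries at 2 h were at 4.18, 6.63 and 2.53 TPM in WT and 8.72 and 1.63 TPM in bro1-1.

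The other genes of the anthocyanin list were less uniform. UF3GT (log2 fold change 3.22, SE 0.611, adjusted p = 0.00293) and 5MAT (3.24, SE 0.386, adjusted p = 0.000208), which decorate the pigment, and the bHLH regulator TT8 (1.54, SE 0.247, adjusted p = 0.00116) rose between 2 h and 4 h. Thus 3 of 7 other genes tested were called higher, against 2.60% of all genes, and 0 lower. UF3GT and 5MAT missed the member list only through the level minimum, at 4.02 and 4.95 TPM. The early steps CHS and F3H were already at 72.0 and 54.9 TPM at 2 h, with log2 fold changes of 0.90 and 0.61 to 4 h, whereas F3'H, also an early step, was at 2.14 TPM at 2 h and 4.96 TPM at 4 h (log2 fold change 0.99, adjusted p = 0.0342), just short of a call. PAP1, the paralog of MYB90, was at 38.5 TPM at 2 h and 35.8 TPM at 4 h.

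Small heat shock proteins keep damaged proteins from clumping. ATHSP22.0, of the endoplasmic reticulum, was at 16.4, 35.6 and 15.2 TPM in WT and 28.4, 41.4 and 82.9 TPM in bro1-1 at 4 h, and had made 5.54% of its increase at 2 h. HSP17.4 was at 21.4, 32.5 and 14.0 TPM in WT and 28.9, 30.1 and 106 TPM in bro1-1 at 4 h, with a single high value of 42.9 TPM in WT ABA 2 h replicate 1. HSP18.2 and APX2, a cytosolic ascorbate peroxidase that removes hydrogen peroxide, ran from 6.28 to 35.7 TPM and from 3.48 to 10.8 TPM at 4 h, and AT1G52560, of the small heat shock family, from 8.22 to 37.7 TPM. In all 5, WT ABA 4 h replicate 2 was the highest WT library, and in all 5 bro1-1 ABA 4 h replicate 3 was the highest of the 6.

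The senescence and breakdown members act in the recycling of leaves. SAG29 (SWEET15), a sugar exporter, was at 604, 537 and 788 TPM in WT and 447, 460 and 672 TPM in bro1-1 at 4 h. AT4G33150, the bifunctional enzyme that degrades lysine, averaged 503 TPM from 113 TPM at mock, where WT mock replicate 2 was at 261 TPM against 62.2 to 116 TPM in the other mock libraries. PYD4, annotated in pyrimidine breakdown, was at 87.7 to 122 TPM in the 6 libraries at 4 h and had made 6.86% of its increase at 2 h. SAG13, BFN1 (a nuclease that degrades RNA and DNA), SRG1, CEP1 (a cysteine protease of dying cells), AT5G22860 (a serine carboxypeptidase), BAC2 (a mitochondrial carrier of basic amino acids), PES1 (which makes fatty acid phytyl esters from chlorophyll) and AT4G11910 (NYE2, a STAY-GREEN protein of chlorophyll breakdown) averaged 7.10 to 120 TPM. Of 6 other senescence list genes tested, 5 were called higher and 1, SEN1, lower at 4 h than at mock, against 16.1% of all genes higher and 8.24% lower. Between 2 h and 4 h 0 of 6 were called. NYE1, the paralog of AT4G11910, went from 80.0 to 113 TPM, and SAG12, a marker of late senescence, stayed under 1 TPM.

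Sugar and primary metabolism gave 10 members. SUS3, which splits sucrose, was narrow at 4 h with 90.2 to 112 TPM in the 6 libraries, and PGDH, the first enzyme of the phosphorylated serine pathway, stood at 112 to 212 TPM. AT3G05400, a sugar transporter-like protein, had made 1.71% of its increase at 2 h and was at 21.9 to 39.7 TPM at 4 h. CWINV5, named as a cell wall invertase, was at 5.68, 18.5 and 3.63 TPM in WT and 13.9, 10.5 and 19.6 TPM in bro1-1, with WT ABA 4 h replicate 2 again apart. GPT2, a plastid glucose-phosphate carrier, was at 34.1 to 53.0 TPM except for 96.0 TPM in bro1-1 ABA 4 h replicate 3. INT2 (an inositol transporter), NADP-ME1 (malic enzyme), AT3G60415 (phosphoglycerate mutase family), SUC7 and AMY1 completed the group. In contrast, the raffinose and sugar transport list held no member, and 3 of its 7 tested genes were called lower from 2 h to 4 h, against 1.87% of all genes: the galactinol synthases GOLS3 (12.9 to 0.932 TPM, log2 fold change -3.89, SE 0.373, adjusted p = 5.96e-05) and GOLS2, and the raffinose synthase RS5.

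Detoxification, cell wall and wound genes made smaller groups. GSTU25, a glutathione transferase, was at 4.00, 21.9 and 5.63 TPM in WT and 37.7, 29.0 and 79.6 TPM in bro1-1 at 4 h. UGT74E2, which glucosylates the auxin indole-3-butyric acid, was at 83.8, 108 and 86.7 TPM in WT and 122, 109 and 557 TPM in bro1-1, so bro1-1 ABA 4 h replicate 3 alone set the mean there. ABCG40, an ABA importer, was at 13.1, 3.53 and 1.18 TPM in WT and 16.7, 9.21 and 22.8 TPM in bro1-1. CYP76C2 and CYP91A2 (cytochromes P450), AT1G62620 (a flavin monooxygenase), GLYI7 (glyoxalase family) and ABCC4 (an ABC transporter) averaged at most 142 TPM at 4 h. Among wall genes, the expansin-like EXLB1 averaged 85.8 TPM, the cellulose synthase-like CSLG2 52.2 TPM and the laccase LAC12 8.43 TPM.

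The remaining members were mixed in function. FPF1, named for promoting flowering, was at 9.30 to 19.9 TPM at 4 h and at most 1.29 TPM at 2 h. AT5G39520, of unknown function, averaged 301 TPM and PAP20 and PAP22, purple acid phosphatases, 7.40 and 13.4 TPM. ELF4, a part of the evening complex of the circadian clock, was at 718, 579 and 564 TPM in WT and 488, 399 and 324 TPM in bro1-1 at 4 h, against 46.0 to 96.2 TPM at mock. It was the only clock list gene among the members. Of the other 10 clock genes 4 were called lower from 2 h to 4 h, against 1.87% of all genes: the morning genes CCA1 (73.8 to 26.7 TPM, log2 fold change -1.58, adjusted p = 0.000565), LHY (-2.27), PRR9 (-1.88) and RVE8 (-1.33). The evening gene TOC1 was at 39.0 to 79.2 TPM at 2 h and 70.2 to 146 TPM at 4 h, and was not called. These 4 morning genes thus fell over the interval in which the members rose. Against mock, CCA1 and PRR9 were called higher at 4 h, 2 of the 10 genes against 16.1% of all genes. None was called lower than at mock. Longer ABA exposure and a later time of day cannot be told apart here, so the fall from 2 h is not assigned to the clock. The part of the clock in the levels of the members was not tested.

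**Figure D3:**
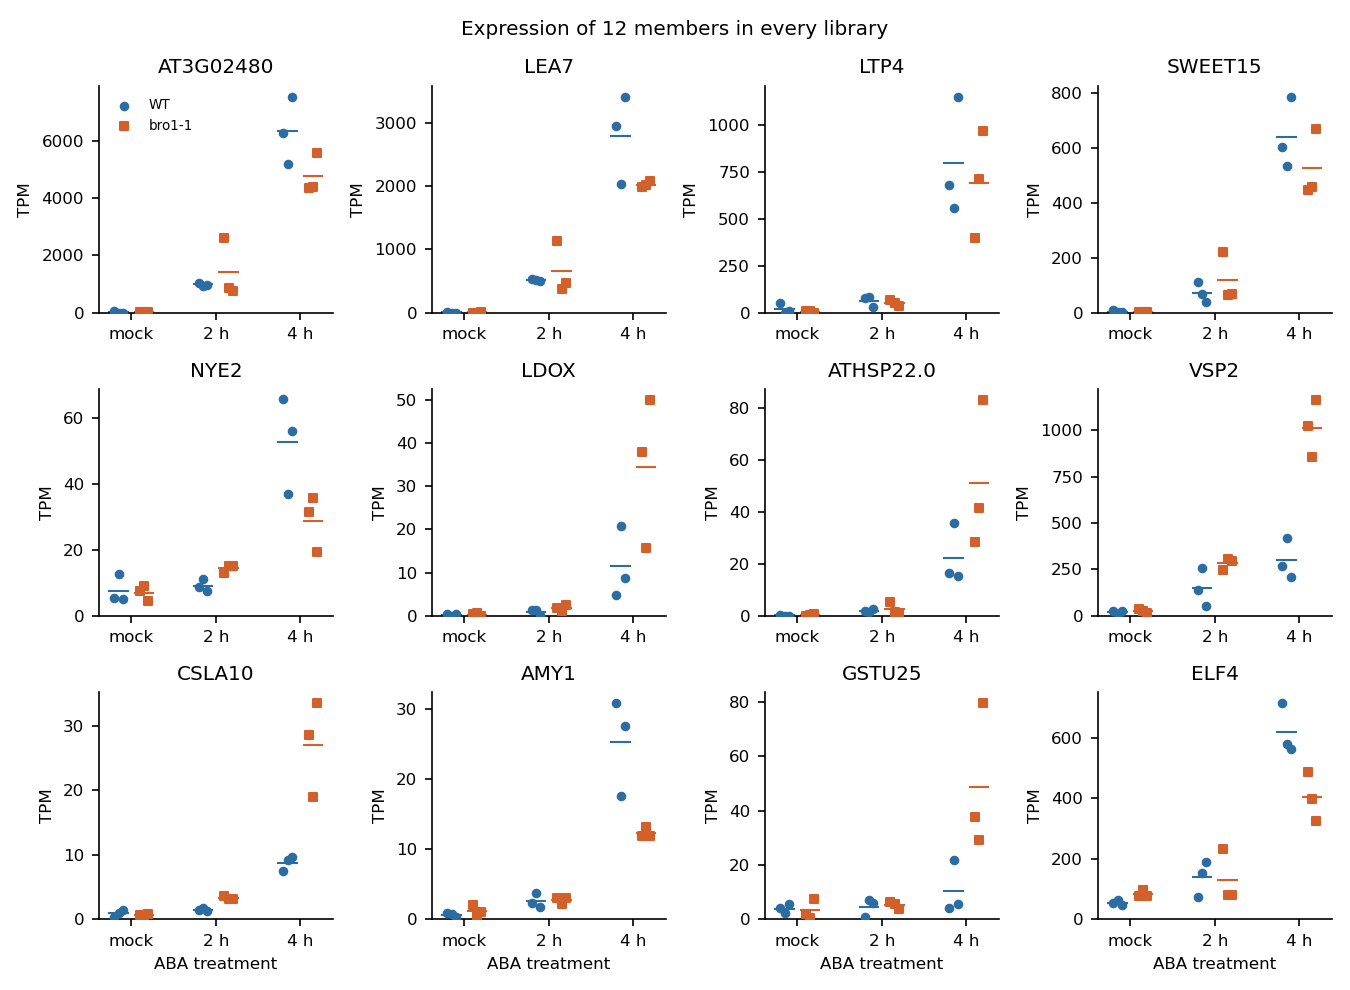
TPM of 12 members at mock, 2 h and 4 h of ABA, with 1 point for each library (WT circles, bro1-1 squares) and bars at the mean of 3. VSP2 and CSLA10 lie higher in every bro1-1 library at 4 h than in any WT library, AMY1 and ELF4 lie lower, and LEA7, LTP4 and SWEET15 (SAG29) overlap.

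Several lists held no member or hardly any. The suberin list had 15 of 18 genes called higher at 4 h than at mock, against 16.1% of all genes. Only FAR4 of that list was called between 2 h and 4 h (7.82 to 20.4 TPM, log2 fold change 1.35, adjusted p = 0.0218), against 2.60% of all genes called higher. All 9 clade A phosphatase genes, which act as brakes on ABA signalling, were called higher than at mock, and AHG1 alone also from 2 h to 4 h (0.417 to 1.98 TPM). Jasmonate genes went in opposite directions from 2 h to 4 h. VSP1, the paralog of member VSP2, was called higher (54.3 to 143 TPM, log2 fold change 1.03, adjusted p = 0.0235), and the synthesis gene AOS (-1.19, adjusted p = 0.00893) and the repressor gene JAZ10 (-1.21, adjusted p = 0.00837) lower. Of 9 salicylate and camalexin genes 2 were called higher than at mock (16.1% of all genes) and 0 from 2 h to 4 h (2.60% of all genes). Of the seed storage and oil body list 4 of 14 genes passed the filter at 2 h and 4 h, and HSD1 was called higher at 1.18 TPM. The list summed to 2.21 to 30.3 TPM in the 12 libraries under ABA.

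Whether the late genes depended on the genotype was tested apart from the ranking, which averaged WT and bro1-1. With a call set at an adjusted p under 0.05 and a log2 fold change over 1 in size, edgeR called 0 of the 94 members that passed the filter at 4 h, against 0.0202% of all genes. At an unadjusted p under 0.05 were 33 of the 94, against 10.1% of all genes, and DESeq2 called 9 of them, 6 higher and 3 lower in bro1-1, against 1.35% of all genes. The lowest adjusted p of a member under edgeR was 0.0918. AtBro1 itself, which did not overlap between the genotypes at 4 h, was not called there either (log2 fold change -1.51, SE 0.260, edgeR adjusted p = 0.199). The absence of calls therefore does not show that the members were alike in WT and bro1-1. Of the 94, 61 had a lower and 33 a higher fitted level in bro1-1 (51.0% of all genes were lower), with a median log2 fold change of -0.19 against -0.01 for all genes. Every bro1-1 library lay above every WT library in 6 members (5.76% of all genes) and below in 16 members (7.61% of all genes).

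CSLA10, a cellulose synthase-like gene of the mannan synthase family, gave the smallest p. It was at 7.43, 9.13 and 9.68 TPM in WT and 28.5, 19.0 and 33.5 TPM in bro1-1 at 4 h, with no overlap (log2 fold change 1.58, SE 0.193, adjusted p = 0.0918). The adjusted p ran from 1.45e-08 with DESeq2 to 0.382 over the alternatives. At 2 h the order was the same at a lower level, with 1.36, 1.72 and 1.19 TPM in WT and 3.53, 3.18 and 3.16 TPM in bro1-1 (log2 fold change 1.2, SE 0.238, adjusted p = 0.399). At mock it was at 0.39 to 1.41 TPM in all 6 libraries. VSP2, a vegetative storage protein induced by wounding and jasmonate, was at 269, 419 and 210 TPM in WT and 1024, 855 and 1163 TPM in bro1-1 at 4 h (log2 fold change 1.75, SE 0.244, adjusted p = 0.0918), with a range of adjusted p from 1.65e-11 with DESeq2 to 0.485. At 2 h its ranges of 51.7 to 257 and 249 to 304 TPM touched. VSP2 and its paralog VSP1 had whole expected counts in all 18 libraries, and sharing of reads between them was not tested.

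Further members higher in bro1-1 at 4 h had larger spreads. AT4G14090 was at 2.35, 6.42 and 4.26 TPM in WT and 15.4, 7.48 and 20.5 TPM in bro1-1 (log2 fold change 1.69, SE 0.396, adjusted p = 0.286, DESeq2 0.00450, up to 0.723 over the alternatives). SUC7, at 2.67, 4.20 and 1.37 TPM in WT and 6.72, 6.32 and 19.0 TPM in bro1-1, had an adjusted p of 0.313. It belongs to a family of similar sucrose carrier genes, its expected counts were whole in all 18 libraries, and sharing of reads within the family was not tested. PLP4, a patatin-like lipase, was at 2.60, 5.96 and 2.46 TPM in WT and 5.93, 12.8 and 20.1 TPM in bro1-1. GSTU25, without overlap, had the highest log2 fold change of all members (2.20, SE 0.586, adjusted p = 0.327, DESeq2 0.00496, up to 0.772).

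Members lower in bro1-1 at 4 h had log2 fold changes down to -1.56, whereas those of higher members reached 2.20. AMY1, a secreted alpha-amylase that degrades starch in dying leaves, was at 30.8, 17.5 and 27.5 TPM in WT and 11.9, 13.1 and 11.8 TPM in bro1-1 (log2 fold change -1.08, SE 0.256, adjusted p = 0.295, DESeq2 0.0200, up to 0.758 over the alternatives). AT1G53100, a glycosyltransferase, was at 20.7, 10.1 and 15.0 TPM in WT and 7.64, 5.70 and 8.03 TPM in bro1-1. AT3G60961 was at 11.6, 9.30 and 8.88 TPM in WT and 4.70, 3.35 and 1.88 TPM in bro1-1 (log2 fold change -1.56, SE 0.415, adjusted p = 0.327), but its annotated span overlaps a pseudogene on the opposite strand over 9903 bases and the strand setting is not given. Its expected counts were whole in 0 of 18 libraries, so some reads were shared out with other genes. The effect of that sharing on its level was not tested. AT5G39520 was at 551, 305 and 396 TPM in WT and 218, 237 and 102 TPM in bro1-1 (adjusted p = 0.384). AT1G11170, at 39.3, 42.7 and 40.9 TPM in WT and 31.5, 26.9 and 31.9 TPM in bro1-1, shows how small a separation without overlap could be (log2 fold change -0.49, adjusted p = 0.310).

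**Figure D4:**
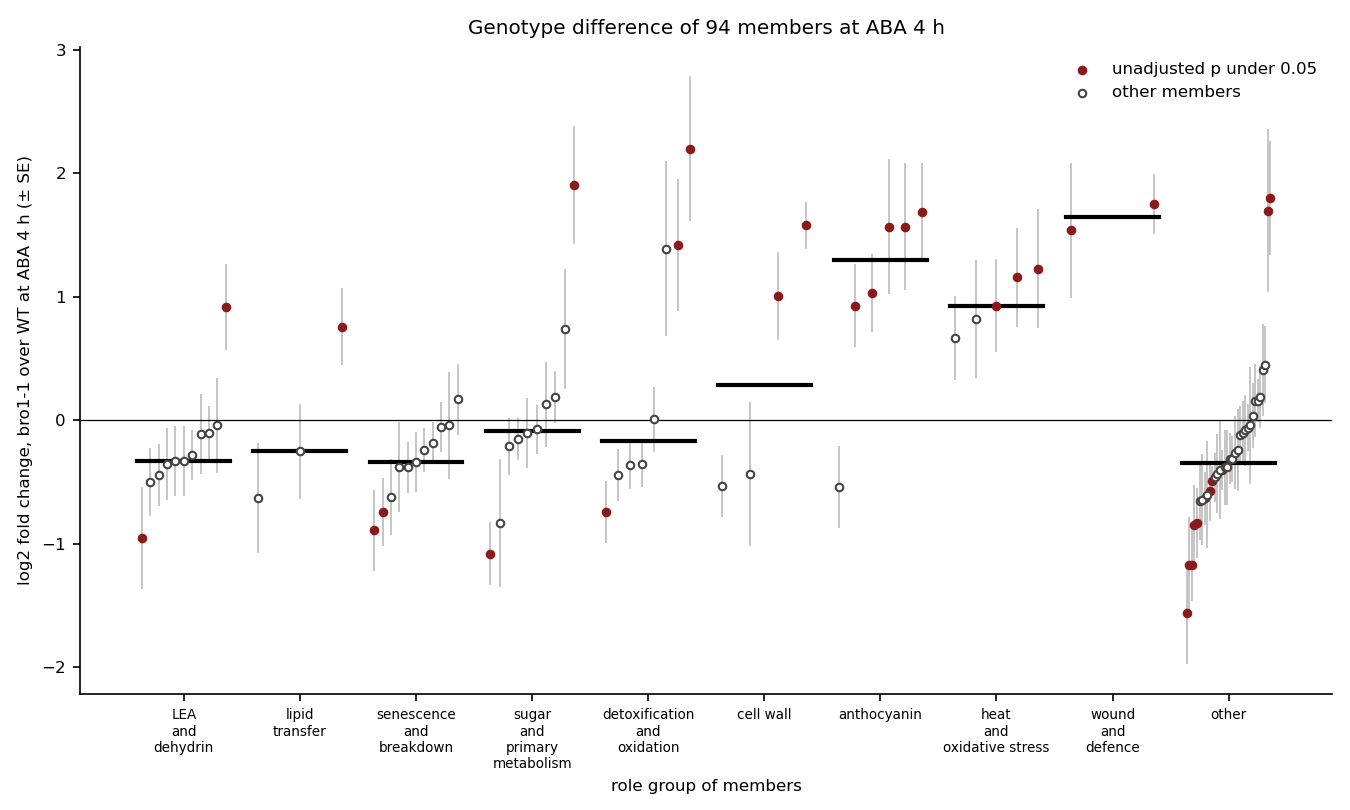
Log2 fold change of bro1-1 over WT at ABA 4 h with its SE from edgeR for the 94 members tested, by role group, with filled points at an unadjusted p under 0.05 and bars at group medians. No member passed the adjusted threshold. The anthocyanin, heat and wound groups lie mostly above 0 (medians 1.30, 0.93 and 1.65), and the LEA and the senescence groups mostly below (medians -0.33 and -0.34).

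Role groups differed in how many members were higher in bro1-1 at 4 h. They were formed after the values were seen, so their counts are descriptions. Of the 6 anthocyanin members 5 had a higher fitted level in bro1-1, with a median log2 fold change of 1.30, and the exception was the regulator MYB90 at -0.54. All 5 heat and oxidative stress members were above 0, with a median of 0.93, and both wound and defence members, VSP2 and MBP2 (a myrosinase-binding protein), with 1.75 and 1.54. Of the 11 LEA and dehydrin members 10 were below 0, with a median of -0.33, and the exception was AT5G66780 at 0.92. Of the 11 senescence and breakdown members 10 were below 0, with a median of -0.34. The 34 members outside any role group were alike in this, with 26 below 0 and a median of -0.34, so the lower level was not particular to those roles. The remaining groups were divided, with 4 of 10 sugar and primary metabolism, 4 of 8 detoxification, 2 of 4 cell wall and 1 of 3 lipid transfer members above 0. No member of any group was called, and an unadjusted p under 0.05 was reached by 5 of 6 anthocyanin, 3 of 5 heat, 2 of 11 LEA and 2 of 11 senescence members.

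Root markers were also compared between the genotypes. All 9 had a higher mean in bro1-1 than in WT at 4 h. Of the 9, 3 were at an unadjusted p under 0.05 (10.1% of all genes) and 0 were called by edgeR (0.0202% of all genes). Without PYK10 they summed to 24.2, 56.0 and 22.1 TPM in WT and 46.8, 76.8 and 70.0 TPM in bro1-1, and PYK10 was at 699, 1002 and 728 TPM and at 1156, 2158 and 1718 TPM. WT ABA 4 h replicate 2, the WT library highest in root markers, was also the WT library highest in the heat members and in 5 of 6 anthocyanin members, the exception being MYB90 with 22.4 TPM against 49.3 and 53.5 TPM. Within bro1-1 the orders were mixed. There, ABA 4 h replicate 2 had the highest root marker sum of the 6 libraries but the lowest anthocyanin median of the bro1-1 libraries (-0.19 on the log2 scale against the mean of the time point, where replicates 1 and 3 were at 0.81 and 1.17). The heat median was lowest in bro1-1 replicate 1 (0.00), which also had the lowest root marker sum of the bro1-1 libraries. It was 0.26 in replicate 2 and 1.23 in replicate 3. Leaf markers summed to 11500 to 16417 TPM in WT and 12254 to 18295 TPM in bro1-1. The part of these markers in the member differences was not tested. Without WT ABA 4 h replicate 2, the medians were 1.60 for anthocyanin, 1.53 for heat, -0.55 for LEA and -0.50 for senescence members, 47 of 94 members reached an unadjusted p under 0.05, and 2 were called, VSP2 and AMY1. Without bro1-1 ABA 4 h replicate 3 the medians were 1.04 for anthocyanin, 0.54 for heat, -0.34 for LEA and -0.29 for senescence members. Then 20 of 94 members reached that p, among them 2 of 6 anthocyanin, 0 of 5 heat, 2 of 11 LEA and 0 of 11 senescence members. Leaving out WT ABA 4 h replicate 1 or 3 left 16 or 17 such members. The shares over all genes in these fits without a library are not given here, so the counts cannot be set against the 10.1% of the full fit.

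**Figure D5:**
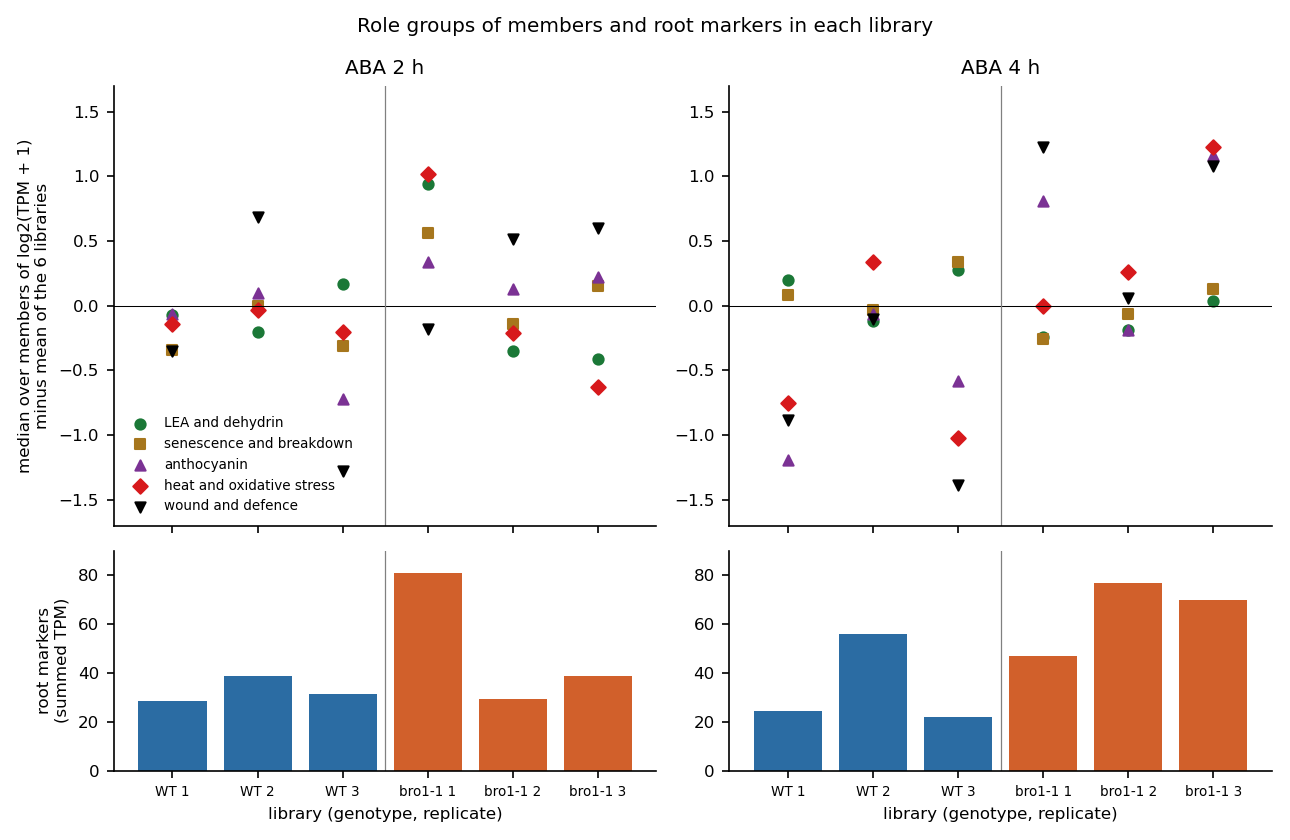
Upper panels show, for each library at 2 h and 4 h, the median over the members of 5 role groups of log2(TPM + 1) minus the mean of the 6 libraries at that time point. Lower panels show the summed TPM of 8 root markers in the same libraries. At 2 h bro1-1 replicate 1 is highest for LEA members (0.94) and root markers (80.8 TPM), and at 4 h WT replicates 1 and 3 are lowest for anthocyanin and heat members.

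At 2 h, the number of members higher in bro1-1 rested largely on a single library. Of the 91 members tested edgeR called 0 (0.0308% of all genes), 8 were at an unadjusted p under 0.05 (7.15% of all genes), and DESeq2 called CSLA10 alone (0.354% of all genes). A higher fitted level in bro1-1 was found for 67 of 91 members (50.0% of all genes), among them all 11 senescence and 9 of 10 tested LEA members. Without bro1-1 ABA 2 h replicate 1 it was found for 37 of 91 members and for 1 of 10 LEA members, and the median over the LEA members changed from 0.33 to -0.30. Without it 4 of 6 anthocyanin members were above 0, against 5 of 6 with it, and 7 of 10 sugar and primary metabolism members against 8 of 10. Every bro1-1 library lay above every WT library in 8 members (5.69% of all genes), CSLA10, BAC2 and AT4G11910 among them, and below in 0 members (4.90% of all genes). In bro1-1 ABA 2 h replicate 1 SAG29 was at 220 TPM against 65.9 and 66.4 TPM, BFN1 at 27.0 TPM against 3.67 and 7.73 TPM and MYB90 at 25.6 TPM against 8.72 and 1.63 TPM in the other bro1-1 libraries.

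At mock 61 of the 94 coding members passed the filter. edgeR called 0 of them (0.0153% of all genes), as did DESeq2, and 4 were at an unadjusted p under 0.05 (1.19% of all genes). ELF4 was at 52.2, 63.4 and 46.0 TPM in WT and 77.9, 96.2 and 75.8 TPM in bro1-1 (log2 fold change 0.75, SE 0.186, adjusted p = 1.00), the opposite order to that at 4 h. In a joint fit of the 18 libraries that allowed for time point, edgeR and DESeq2 called 0 of 94 members (0.0494% of all genes for edgeR), and 12 were at an unadjusted p under 0.05 (6.52% of all genes). The smallest p values belonged to CSLA10 (log2 fold change 0.97, SE 0.255, adjusted p = 0.474), AT3G60961 (-1.03), VSP2 (1.00), LDOX (1.17) and ABCG40 (1.15).

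The interaction compared the step from 2 h to 4 h between the genotypes. edgeR called 0 of 94 members (0% of all genes), as did DESeq2, and 10 were at an unadjusted p under 0.05 (3.12% of all genes). The step was smaller in bro1-1 for 69 of 94 members (51.5% of all genes), with a median interaction of -0.40 on the log2 scale against -0.01. Without bro1-1 ABA 2 h replicate 1 it was smaller for 53 of 94, with a median of -0.11. AT4G11910 had the smallest p, with 8.85, 11.2 and 7.40 TPM in WT and 13.1, 15.2 and 15.1 TPM in bro1-1 at 2 h, and 65.6, 36.8 and 56.0 TPM in WT and 31.4, 35.6 and 19.3 TPM in bro1-1 at 4 h (interaction -1.55, SE 0.422, adjusted p = 0.996). In AT4G11910 and BAC2 every bro1-1 library lay above every WT library at 2 h and below at 4 h, an order found in 0.0892% of all genes. BAC2 (-1.60), AT1G02470 (-1.54), HSP17.4 (2.94) and AT5G39520 (-1.47) followed. Measured from mock to 4 h, the interaction was called for 0 of 94 members by either tool (0% of all genes under edgeR), with 20 at an unadjusted p under 0.05 (5.95% of all genes).

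The late pattern was also read in a genotype that had not chosen the genes. When the same rule was applied to the 9 WT libraries, 72 of its 100 genes were members. Of those 100 genes, 92 passed the filter in bro1-1 and 30 were called higher at 4 h than at 2 h there (0.560% of all genes), with a median log2 fold change of 1.52. When it was applied to the 9 bro1-1 libraries, 62 of 100 were members, 88 passed the filter in WT and 46 were called higher (2.12% of all genes), with a median of 1.77. A gene can pass the filter through its 4 h libraries alone, so these medians do not speak for all 100. The first count moved between 0 and 57 when a bro1-1 library was left out, with 57 without ABA 2 h replicate 1, 0 without ABA 2 h replicate 2 or 3, 2 without ABA 4 h replicate 1 and 15 without ABA 4 h replicate 2.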

How the data were processed

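The authors trimmed the reads, discarded reads that mapped to ribosomal RNA with Bowtie2 2.3.5.1 and estimated expression with RSEM 1.2.30. The files as deposited hold, for each of 18 libraries, expected counts per gene (1.77% to 2.06% not whole, not normalized between libraries) and TPM, scaled by RSEM within a library. The genome build, annotation and strand setting are not given in the sources used here. Gene positions and promoters are from TAIR10.1, where 32548 of 32833 identifiers were found.

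TPM served for levels and the ranking, and counts for tests. Expected counts were rounded and tested with edgeR 4.0.16 in R 4.3.3 (filterByExpr, TMM factors, quasi-likelihood test, Benjamini-Hochberg adjustment over all genes tested), with DESeq2 1.42.0 as an alternative. The SE is the log2 fold change divided by the square root of F. Genotypes were compared on the 6 libraries of a time point, interactions on 12 libraries and the overall difference on 18. On simulated data with 200 genes changed 4-fold, the edgeR fit of the genotypes at 4 h recovered 198 with 5 false calls among 18641 genes, and the interaction fit from 2 h to 4 h recovered 184 with 2 among 18541. The simulated replicates had the same fixed spread for every gene, which was not matched to the spread of these libraries. The simulation thus checks that the fits run correctly and does not give their power on these data. Replicates of a group differed by more than sampling noise (chi-square per degree of freedom 9.26 to 146), so none was counted as a copy.

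The members and gene lists were chosen with earlier results of these data known. Named were AtBro1, the first 20 members, the 10 highest at 4 h, members with the 5 smallest p in the genotype tests, members and called genes of the lists, families, neighbours and the edge of the list. Other members were named by role after their values were seen. The alternatives are given in the closing section.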

Additional observations from a re-analysis of the deposited data

Results flagged for a closer look

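For 2 members, every bro1-1 library lay above every WT library at 2 h and below every WT library at 4 h, an order found in 18 of all 20186 genes tested (0.0892%). The STAY-GREEN gene AT4G11910 had an interaction of -1.55 on the log2 scale (SE 0.422, edgeR adjusted p = 0.996), and the amino acid carrier gene BAC2 one of -1.60 (SE 0.468, edgeR adjusted p = 0.996), with 5.16, 7.41 and 3.10 TPM in WT and 13.3, 7.62 and 7.93 TPM in bro1-1 at 2 h, and 37.6, 31.9 and 41.5 TPM in WT and 24.9, 27.3 and 15.1 TPM in bro1-1 at 4 h. The test of the difference itself therefore called neither.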

How the results depend on the processing

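Under DESeq2, members called between the genotypes numbered 9 at 4 h and 1 at 2 h in place of 0. At 4 h the number was 2 with no filter, and 0 to 2 when a library was left out (2 without WT ABA 4 h replicate 2). Over 18 libraries it was 0 to 1 when a library was left out (1, CSLA10, without WT mock replicate 3). At mock, at 2 h and in both interactions it stayed at 0 to 0 without any library. Members at an unadjusted p under 0.05 at 4 h numbered 20 with all 18 libraries in 1 fit and 16 to 47 when a library was left out. Members higher in bro1-1 numbered 37 to 75 at 2 h and 33 to 41 at 4 h, and those with a larger step in bro1-1 from 2 h to 4 h 23 to 41. These member counts were alternatives chosen after seeing the data. For the fits with no filter, with all 18 libraries or without a library, the shares over all genes are not given here. List genes outside the members called from 2 h to 4 h numbered 33 with no fold change threshold against 19, and 17 to 27 without a library, and 70 to 77 from mock to 4 h. Of the genes chosen on WT, DESeq2 called 62 in bro1-1 (3.40% of all genes were called, in either direction), and 0 to 57 were called without a library. Of those chosen on bro1-1, 31 to 40 were called in WT against 46.

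Deviations of libraries with the same replicate number correlated over 0.1 in 10 of 45 pairs of libraries (range -0.444 to 0.556), so the numbers do not pair libraries. Mock libraries of different numbers also shared deviations across the genotypes. The correlation was 0.609 for WT mock replicate 2 with bro1-1 mock replicate 3 and -0.558 for WT mock replicate 2 with bro1-1 mock replicate 1. As a replicate block the numbers left 4 of the 30 genes chosen on WT called in bro1-1. The rule took 61 of the 100 members again with at least 20 TPM, 62 on bro1-1 libraries alone, and 86 to 99 without a library. Of 875 gene values under the alternatives, 0 reversed and 15 gained a call. No member was called between the genotypes in the main fits, so no such call could be lost or reversed.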
